A study of Homo sapiens with 4 samples.

Results

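The aminoacyl tRNA synthetase genes studied here were 37 genes, of which 21 encode enzymes of the cytosol and 16 encode enzymes of the mitochondrion. They were chosen as a family from the known genes of both compartments and not by a measured value, though earlier results of these data were known. The spot tables carried an accession for each probe in place of a gene name, so the members were found by matching accessions to RefSeq genes (GRCh38.p14), which named 19102 genes on the arrays. In this way 36 of the 37 were found on 39 probes, and CARS, the cytosolic cysteinyl tRNA synthetase, is not analysed here. The older symbols are used throughout, so that AARS stands for AARS1, TARSL2 for TARS3 and likewise for the others.

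PC3 is a prostate cancer cell line. The cells had been infected with a lentivirus carrying an shRNA against ALKBH3, which encodes an oxidative demethylase that repairs alkylated bases, or a control shRNA directed at GFP, and all had been selected with puromycin. Total RNA was collected 48 h or 96 h after selection and measured on single-colour Agilent arrays, 1 array for each combination of shRNA and time point, 4 arrays in all. The labels do not name the hairpin. Each shRNA was repeated only across time points, and each time point only across shRNAs, so p-values measure the spread between these few arrays. Each time point may lie on a slide of its own that holds both shRNAs, and then time and slide cannot be told apart. The mean shRNA difference is the mean of the differences within the time points. The main fit ignored this pairing, so its SE and p-values for the shRNAs also hold the spread between time points. Values given with the block come from another fit, which paired the arrays and compared the shRNAs within a time point.

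An aminoacyl tRNA synthetase joins an amino acid to the tRNA that reads its codons, and so supplies the ribosome with charged tRNA. Human cells keep separate nuclear genes for most of the cytosolic and mitochondrial enzymes, whereas GARS and KARS serve both compartments. Several cytosolic enzymes sit in a multi-synthetase complex held together by the scaffold proteins AIMP1, AIMP2 and EEF1E1. Many genes for cytosolic enzymes are known targets of the amino acid response, in which the transcription factor ATF4 acts after amino acid shortage or other stress, and WARS, the tryptophanyl enzyme, is known to be induced by interferon gamma.

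Signals below are log2 intensities relative to the 75th percentile of each array, which lay between 2134 and 2385 intensity units, and differences are differences of such log2 values. Between 67.0% and 70.9% of the probes were well above background on an array. ALKBH3, the target, was at -0.73 and -0.89 with control shRNA and at -2.48 and -2.40 with ALKBH3 shRNA at 48 h and 96 h. It was lower by a log2 difference of -1.63 ± 0.13 (SE, 2 arrays for each shRNA), with an unadjusted p = 9.39e-05 and an adjusted p = 0.238 in the limma fit across 14556 genes. With time point as a block, which compares the shRNAs within a time point, its adjusted p was 0.0214. The PC3 markers KRT8, KRT18, EPCAM, VIM and CD44 were well above background on all 4 arrays, whereas markers listed as low or absent in PC3 were mixed. KLK3 was well above background on 0 arrays, and KLK2 and TMPRSS2 on all 4, at 43.7 to 67.2 and 5463 to 8442 intensity units. In addition, the probes of 6 leukocyte or endothelial markers read between 24.1 and 308.2 units.

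All 36 measured synthetases were well above background on all 4 arrays. None passed the cutoffs of the study, a change of at least 2-fold with an unadjusted p below 0.05, in either comparison. A gene was called when it passed them. With ALKBH3 shRNA against control shRNA 1.28% of all genes tested were called, and at 96 h against 48 h 1.06% of 14559 genes. An adjusted p below 0.05 was reached by 0% of the genes in each comparison in the limma fit without a covariate.

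Promoter sequences were read first, since the family is known for shared control elements. RefSeq (GRCh38.p14) gave windows from 250 bases before to 50 bases after a start site for 30 of the 37 members, 39 windows in all. DARS, LARS, TARSL2, VARS, YARS, AARS2 and VARS2 had no window. The element bound by C/EBP and ATF factors, searched as TGATGNAA on both strands, was found in 8 members, against 4.46% of all 27305 genes with a window. Of these 8 members 7 are cytosolic, and YARS2 is mitochondrial. The stretches are shown because they carry the letters that the amino acid response is known to use, 5′ to 3′ on the strand of the gene, with the matched letters in capitals.
AARS: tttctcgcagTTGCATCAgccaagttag
CARS: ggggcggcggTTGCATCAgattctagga
GARS: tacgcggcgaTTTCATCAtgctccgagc
IARS: tttcagcgcgTTGCATCAcctccgtgcg
MARS: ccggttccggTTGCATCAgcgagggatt
NARS: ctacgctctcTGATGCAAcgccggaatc
TARS: cgcctttcgaTTGCATCAgctggtccag
YARS2: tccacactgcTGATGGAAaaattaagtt
The stretches lie at chr16:70289676-70289703 for AARS, chr11:3057408-3057435 for CARS, chr9:92293693-92293720 for IARS, chr18:57621805-57621832 for NARS and chr12:32756077-32756104 for YARS2, all on the minus strand. On the plus strand are chr7:30594835-30594862 for GARS, chr12:57488054-57488081 for MARS and chr5:33440957-33440984 for TARS. In CARS, MARS and TARS the match begins within 4 bases of the start site. A match describes letters only and is not a measured binding site.

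Letters of the interferon elements were found in fewer members. The letters GAAANNGAA, common to interferon-stimulated response elements, were found on either strand in 4 members, GARS, IARS, WARS and EARS2, against 9.86% of all genes. The letters TTCNNNGAA, used by STAT factors, were found in 5 members, CARS, TARS, WARS, PARS2 and WARS2, against 9.38% of genes. Both were found in the second window of WARS, whose 250 bases before the start site (chr14:100375348-100375597, minus strand) are shown because WARS had the largest difference with time; capitals mark TTCNNNGAA first and GAAANNGAA second.
WARS: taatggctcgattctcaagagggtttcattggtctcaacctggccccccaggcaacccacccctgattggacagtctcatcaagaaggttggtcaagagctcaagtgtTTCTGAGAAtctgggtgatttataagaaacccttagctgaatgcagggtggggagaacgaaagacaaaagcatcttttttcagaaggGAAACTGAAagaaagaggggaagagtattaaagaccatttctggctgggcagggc
The letters CCGGAAGT of ETS factors were found in 8 members, against 4.95% of genes. In the second window of TARS they overlap a match to TTCNNNGAA.

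HARS and HARS2, which encode the histidyl enzymes of the cytosol and the mitochondrion, are transcribed away from each other. Their windows share 184 bases, and 84 bases lie between the start sites (chr5:140691371-140691454, shown on the plus strand, which is that of HARS2). The stretch is shown because it lies before both genes of a cytosolic and mitochondrial pair, and capitals mark its ETS letters.
HARS to HARS2: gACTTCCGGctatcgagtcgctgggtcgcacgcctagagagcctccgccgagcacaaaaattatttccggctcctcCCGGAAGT
The signal of HARS was 1.93 and 1.87 at 48 h and 2.02 and 2.08 at 96 h, with control and ALKBH3 shRNA in that order. HARS2 was at 0.81 and 0.71 at 48 h and 0.88 and 0.83 at 96 h. Both were slightly higher at 96 h with either shRNA, by 0.15 ± 0.09 for HARS and 0.10 ± 0.10 for HARS2 (SE, 2 arrays for each time point). With ALKBH3 shRNA the differences were 0.00 ± 0.13 and -0.08 ± 0.12, and in the limma fits none of the 4 differences had an unadjusted p below 0.05.

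The first comparison asked whether the synthetases differ when ALKBH3 is depleted. The median log2 difference, ALKBH3 shRNA minus control shRNA, was 0.06 for 20 cytosolic genes and 0.02 for 16 mitochondrial genes (-0.01 after quantile normalization), beside 0.00 over all genes tested. Of the cytosolic genes 14 were higher and 6 lower, and of the mitochondrial genes 9 were higher and 7 lower, whereas 49.5% of all genes were higher. At 48 h the medians were 0.01 and -0.05, and at 96 h 0.09 and 0.07, for cytosolic and mitochondrial genes in that order. These medians are descriptions, and no test was run between the compartments. Without the ALKBH3 shRNA array of 96 h the cytosolic median was 0.00 and the mitochondrial median -0.11, and without that of 48 h they were 0.10 and 0.12, so a single array moved each median by more than the distance between them.

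An unadjusted p below 0.05 was reached by 1 higher and 1 lower member of 36. Among all genes tested 4.71% were higher and 3.59% lower at that threshold. With the block 7 members of 36 had an unadjusted p below 0.05, against 25.1% of all genes. An adjusted p below 0.05 with the block was reached by 0 members, and by 3.39% of all genes as higher and 1.74% as lower. In 7 members both ALKBH3 shRNA arrays lay above both control arrays and in 4 both lay below, against 17.4% and 19% of all genes. These shares are close to those of the array as a whole for the higher members and below it for the lower ones, with no test of the difference.

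**Figure D1:**
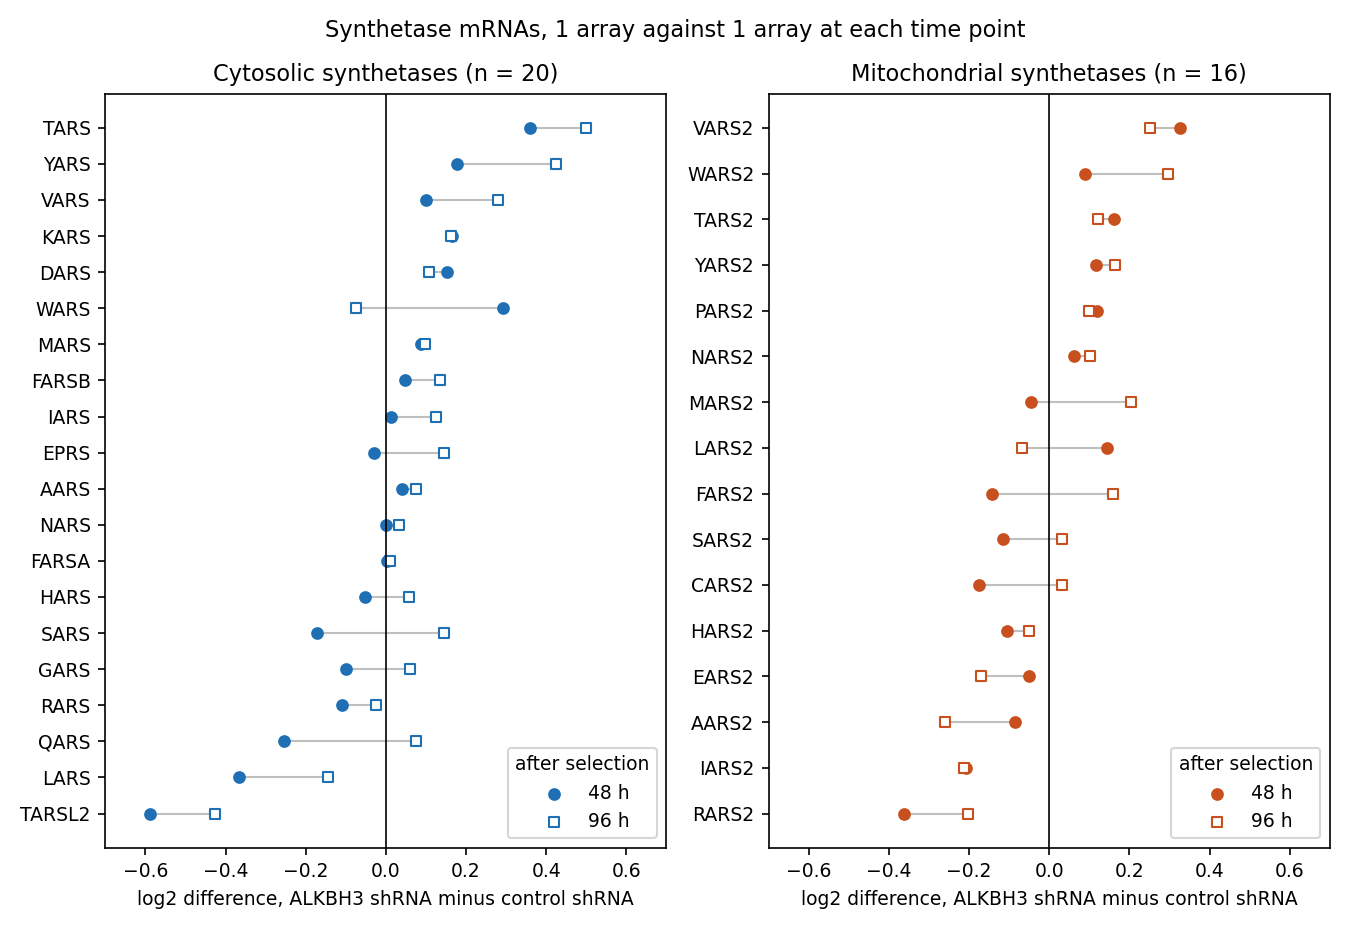
Log2 difference between ALKBH3 shRNA and control shRNA for each synthetase (x axis) at 48 h (filled circles) and 96 h (open squares), cytosolic genes on the left and mitochondrial genes on the right, ordered by the mean of both. TARS lies highest and TARSL2 lowest among the cytosolic genes at each time point, and most other genes lie within 0.3 of 0.

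The threonyl enzymes stood at both ends of the cytosolic list. TARS, the cytosolic threonyl tRNA synthetase, was at 2.69 and 2.63 with control shRNA and at 3.05 and 3.13 with ALKBH3 shRNA, at 48 h and 96 h in that order. Both ALKBH3 shRNA arrays lay above both control arrays. The log2 difference was 0.36 at 48 h and 0.50 at 96 h, 0.43 ± 0.12 as a mean (SE), which is 34.7% higher (limma, unadjusted p = 0.0164, adjusted p = 0.462). With the block its adjusted p was 0.0661. Leaving out any one of the 4 arrays gave an unadjusted p between 0.0588 and 0.107 (limma).

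TARSL2 encodes a protein similar to TARS with the same amino acid specificity. Its signal was -4.22 and -4.38 with control shRNA and -4.81 and -4.81 with ALKBH3 shRNA, or 114 and 112 against 80.9 and 85.2 intensity units. Here the ALKBH3 shRNA arrays lay below the controls at both time points, by -0.59 and -0.43. The mean difference was -0.51 ± 0.12 (SE), or -29.7% (limma, unadjusted p = 0.0109, adjusted p = 0.413), with an adjusted p = 0.0519 under the block. Its unadjusted p was 0.0349 without the control array of 96 h and 0.0505 to 0.0854 without any other single array (limma). The mitochondrial threonyl enzyme TARS2 differed by 0.14 ± 0.13.

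Other cytosolic genes with large differences were YARS, the tyrosyl enzyme, and LARS, the leucyl enzyme of the multi-synthetase complex. YARS was at -1.04 and -1.38 with control shRNA and at -0.86 and -0.96 with ALKBH3 shRNA, at 48 h and 96 h. The groups did not overlap, and the difference was 0.30 ± 0.16 (limma, unadjusted p = 0.128). It was 0.13 without the control array of 96 h and 0.47 without that of 48 h. LARS was at 0.71 and 0.53 with control shRNA and at 0.35 and 0.38 with ALKBH3 shRNA, a difference of -0.26 ± 0.13 (limma, unadjusted p = 0.107), and of -0.16 without the control array of 48 h. In LARS, too, the groups did not overlap.

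Of the mitochondrial genes the valyl enzyme VARS2 was highest. It was at 2.72 and 2.94 with control shRNA and at 3.05 and 3.19 with ALKBH3 shRNA, a difference of 0.29 ± 0.14 (limma, unadjusted p = 0.0981), and of 0.18 without the control array of 48 h. WARS2, the mitochondrial tryptophanyl enzyme, was at -0.72 and -0.84 against -0.63 and -0.55, a difference of 0.19 ± 0.12. Both genes were higher with ALKBH3 shRNA at each time point. RARS2, for arginine, was at 9661 and 9357 intensity units with control shRNA and at 8018 and 8287 with ALKBH3 shRNA, and its log2 signals differed by -0.28 ± 0.13 (limma, unadjusted p = 0.0804). IARS2, for isoleucine, was at 3.59 and 3.57 against 3.38 and 3.36, a difference of -0.21 at 48 h and again at 96 h. The groups did not overlap in any of these 4 mitochondrial genes, and none had an adjusted p below 0.05 with the block (0.119 to 0.281).

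WARS differed between the time points. With ALKBH3 shRNA it was higher at 48 h, 1.95 against 1.66, and close to control at 96 h, 1.19 against 1.26. The mean difference was 0.11 ± 0.31 (limma, unadjusted p = 0.737), and it was -0.27 without the ALKBH3 shRNA array of 48 h and -0.09 without the control array of 96 h. Genes of the interferon gamma response showed larger values at the same time points: over 15 measured genes the median difference was 1.09 at 48 h and 0.00 at 96 h, with 15 and 8 genes higher. None of these 15 genes had an unadjusted p below 0.05 in the shRNA comparison (limma), and 2 of them passed an adjusted p of 0.05 with the block, both higher. Among all genes tested 4.71% were higher at the first threshold and 3.39% at the second.

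The other 15 cytosolic genes lay between -0.09 (QARS) and 0.19 (VARS) and the other 12 mitochondrial genes between -0.17 (AARS2) and 0.14 (TARS2), with unadjusted p-values of at least 0.218 and 0.343 in the limma fit. Precision allows a bound on the family. The 95% confidence interval of the difference lay within 2-fold in either direction for 36 of 36 members, against 86.9% of all genes, and within 1.5-fold for 25 members. A change of 2-fold or more thus lies outside the interval of each measured member. The intervals reached a median of 0.35 to either side, so changes smaller than that are hard to see with these arrays. The intervals of TARS (0.12 to 0.74) and TARSL2 (-0.83 to -0.18) did not include 0.

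The second comparison asked how the synthetases differ between 96 h and 48 h after selection. The median log2 difference, 96 h minus 48 h, was 0.01 for the cytosolic genes (-0.00235 after quantile normalization) and 0.11 for the mitochondrial genes, beside -0.01 over all genes tested. Of the cytosolic genes 11 were higher and 9 lower, and of the mitochondrial genes 12 were higher and 4 lower, whereas 47.8% of all genes were higher. With control shRNA the medians were -0.04 and 0.10, and with ALKBH3 shRNA 0.07 and 0.14, for cytosolic and mitochondrial genes in that order. The mitochondrial median thus lay above the cytosolic one with each shRNA, and by 0.10 for the mean of both shRNAs. That distance, which a shift of whole arrays cannot move, was 0.09 after normexp background correction, 0.11 in the authors' values and 0.06 to 0.11 when an array was left out. No test was run between the compartments, and if each time point had its own slide, the slide cannot be told apart from time.

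An unadjusted p below 0.05 was reached by 3 higher members and 1 lower member of 36, against 9.6% and 9.67% of all genes tested. With shRNA as a block 7 members of 36 had an unadjusted p below 0.05, against 35.4% of all genes. An adjusted p below 0.05 was then reached by 2 higher members, FARSB and YARS2, and by 1 lower member, WARS, against 6.54% and 8.18% of all genes. Both arrays of 96 h lay above both arrays of 48 h in 16 members and below in 4, against 26.2% and 27% of all genes. In the mitochondrial list these counts were 9 and 0 of 16, and in the cytosolic list 7 and 4 of 20.

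**Figure D2:**
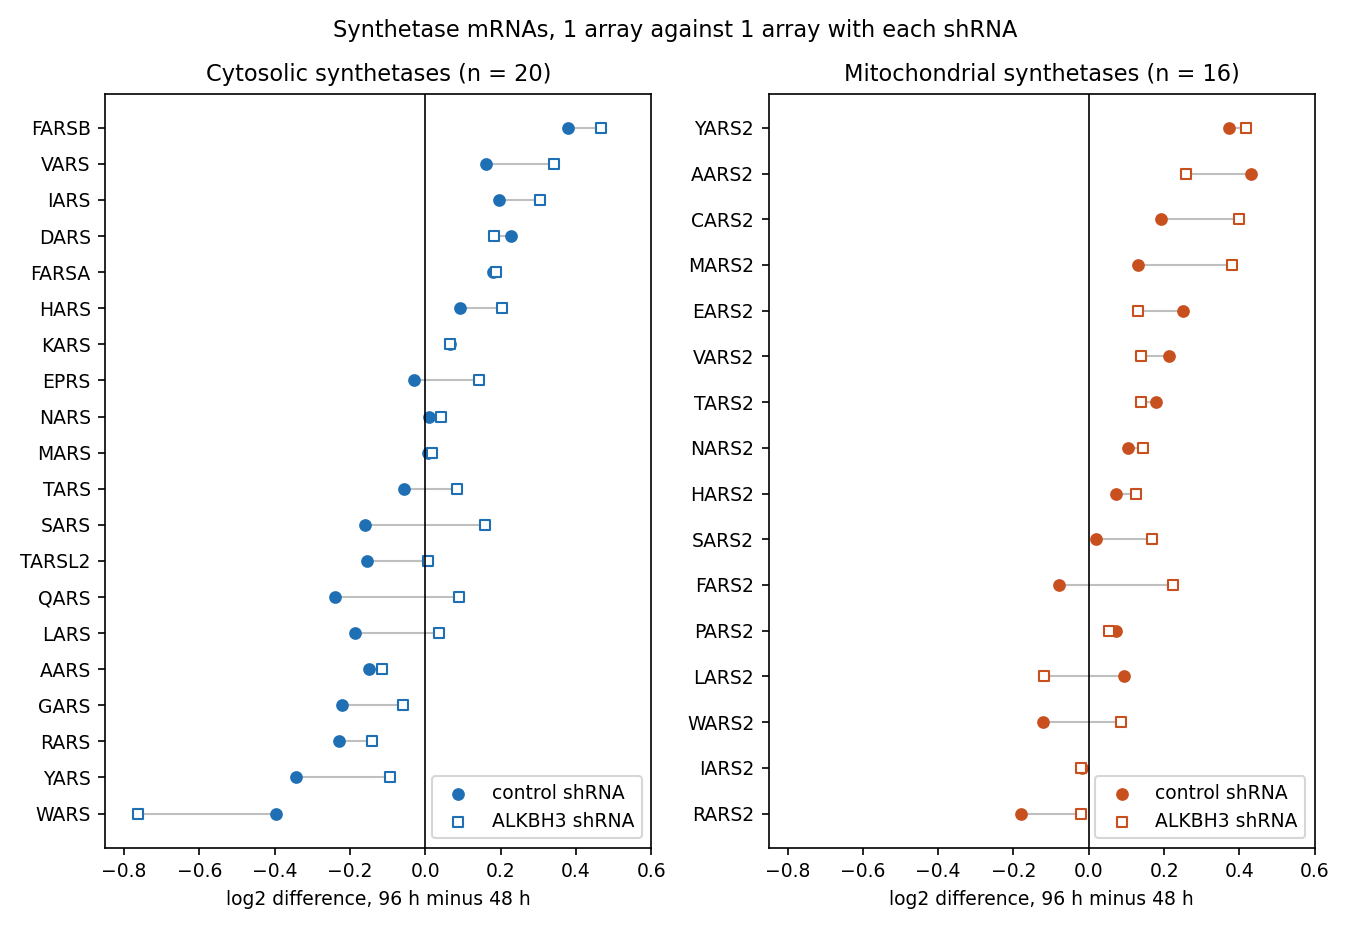
Log2 difference between 96 h and 48 h for each synthetase (x axis) with control shRNA (filled circles) and ALKBH3 shRNA (open squares), cytosolic genes on the left and mitochondrial genes on the right, ordered by the mean of both. WARS lies lowest, at -0.40 and -0.76, and FARSB and YARS2 lie highest in their compartments.

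WARS had the largest difference with time. It was at 1.66 and 1.95 at 48 h and at 1.26 and 1.19 at 96 h, with control and ALKBH3 shRNA in that order. Both arrays of 96 h lay below both of 48 h, by -0.40 with control shRNA and by -0.76 with ALKBH3 shRNA. The mean was -0.58 ± 0.13 (SE), or -33.1% (limma, unadjusted p = 0.0106, adjusted p = 0.154), with an adjusted p = 0.0419 under the block. Without the ALKBH3 shRNA array of 96 h the unadjusted p was 0.0520. Of the interferon gamma response genes 14 of 14 measured in this comparison were lower at 96 h, with medians of -0.40 with control shRNA and -1.59 with ALKBH3 shRNA, and 7 had an unadjusted p below 0.05 (limma), CXCL9, GBP2, GBP4, GBP5, IDO1, IRF1 and TAP1. With the block 4 had an adjusted p below 0.05. Among all genes tested 9.67% were lower at the first threshold and 8.18% at the second. WARS was thus lower together with the interferon gamma response genes with either shRNA, and the part of interferon in its value was not tested.

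FARSB and YARS2 were higher at 96 h. FARSB, the beta subunit of the cytosolic phenylalanyl enzyme, was at 0.07 and 0.12 at 48 h and at 0.45 and 0.59 at 96 h. The difference was 0.42 ± 0.10, or 34.1% higher (limma, unadjusted p = 0.0113, adjusted p = 0.157), with an adjusted p = 0.0384 under the block. FARSA, the alpha subunit, differed by 0.18 ± 0.09 in the same direction. YARS2, the mitochondrial tyrosyl enzyme, was at 0.17 and 0.28 at 48 h and at 0.54 and 0.70 at 96 h, a difference of 0.39 ± 0.11 (limma, unadjusted p = 0.0206, adjusted p = 0.191). Its adjusted p under the block was 0.0419, and its cytosolic counterpart YARS differed by -0.22 ± 0.18. Without the control array of 48 h the unadjusted p was 0.0620 for FARSB and 0.103 for YARS2, and without the ALKBH3 shRNA array of 96 h it was 0.0706 and 0.109 (limma).

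Further mitochondrial genes were CARS2, AARS2 and MARS2. CARS2, the mitochondrial cysteinyl enzyme, was at 2.74 and 2.56 at 48 h and at 2.93 and 2.96 at 96 h, a difference of 0.30 ± 0.11 (limma, unadjusted p = 0.0453). Its difference was 0.16 after normexp background correction and 0.15 in the values that the authors normalized, and without any one of the arrays its unadjusted p was 0.0532 to 0.199. AARS2, for alanine, was at 0.54 and 0.45 against 0.97 and 0.71, a difference of 0.34 ± 0.13 (limma, unadjusted p = 0.0503), and of 0.21 without the control array of 96 h. MARS2, for methionine, was dim, at 40.2 and 41.7 intensity units at 48 h and 48.1 and 57.2 at 96 h, and differed by 0.25 ± 0.11. Its difference was 0.13 with normexp, 0.10 with quantile normalization, 0.14 in the authors' values and 0.15 without the ALKBH3 shRNA array of 96 h. In all 3 genes the arrays of 96 h lay above those of 48 h, and none had an adjusted p below 0.05 with the block.

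Among the cytosolic genes VARS, for valine, was at 2.74 and 2.84 at 48 h and at 2.91 and 3.18 at 96 h, and IARS, for isoleucine, was at 2.26 and 2.27 against 2.45 and 2.57. Both differed by 0.25, with SE of 0.13 and 0.10, and unadjusted p-values of 0.128 and 0.0572 (limma). The groups did not overlap in either gene. The difference of VARS was 0.39 without the control array of 96 h and 0.11 without the ALKBH3 shRNA array of 96 h. That of IARS was 0.03 with normexp, 0.01 in the authors' values and 0.13 as the mean over its probes. The other 2 probes of IARS gave values of both signs, -0.14 and 0.02 with control shRNA and 0.17 and 0.24 with ALKBH3 shRNA. The other 16 cytosolic genes lay between -0.22 (YARS) and 0.20 (DARS), and the other 12 mitochondrial genes between -0.10 (RARS2) and 0.19 (EARS2). Again 36 of 36 intervals lay within 2-fold, against 87.3% of all genes, and 27 within 1.5-fold.

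**Figure D3:**
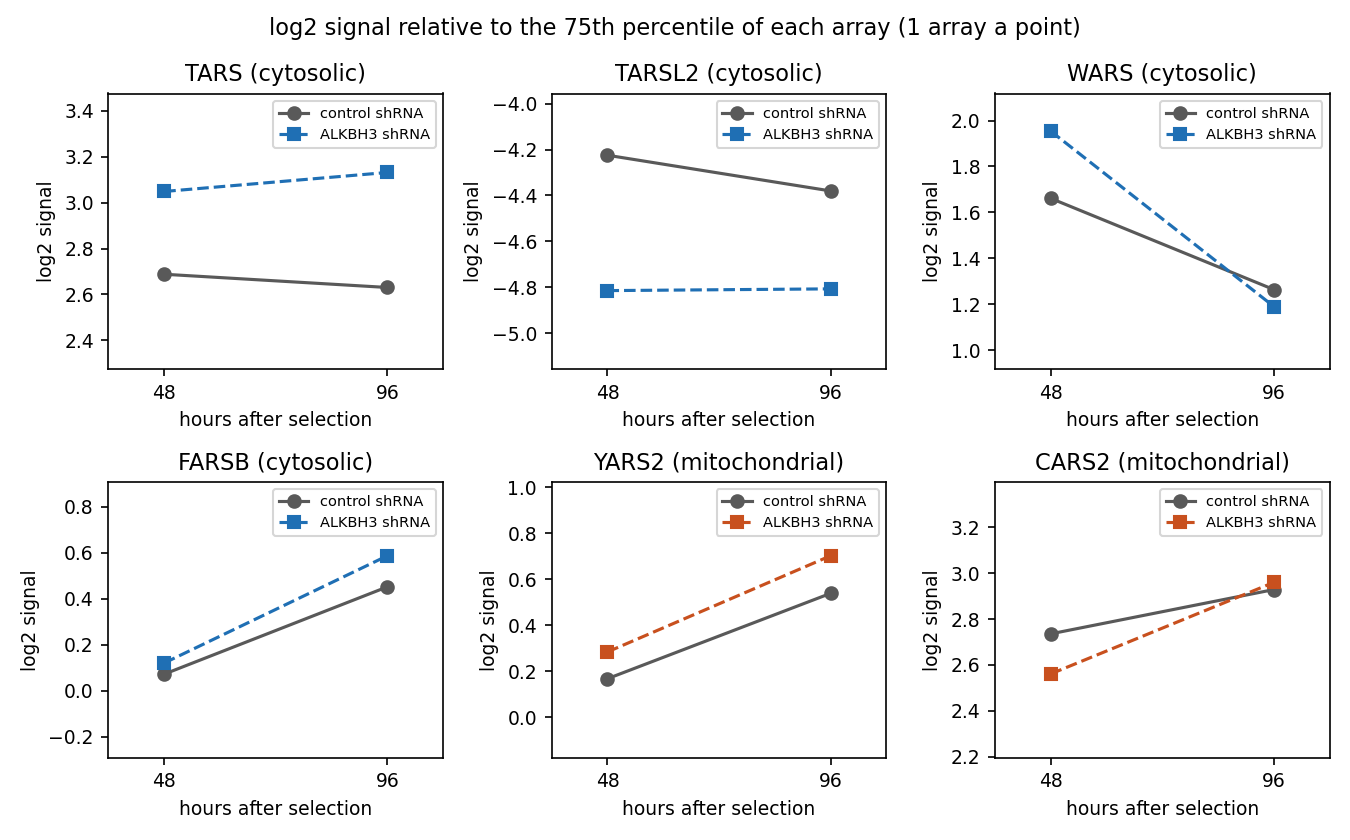
Log2 signal on each of the 4 arrays for the 6 synthetases with an unadjusted p below 0.05 in either comparison, 1 point for each array, against hours after selection; circles are control shRNA and squares ALKBH3 shRNA. TARS and TARSL2 are separated by shRNA, WARS, FARSB, YARS2 and CARS2 by time. Each panel spans 1.2 log2 units, and levels of different panels come from different probes and cannot be compared.

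For 13 amino acids a cytosolic gene was paired with a mitochondrial gene, FARSA standing for the cytosolic phenylalanyl enzyme and TARS for the threonyl enzyme. EPRS, which serves both glutamate and proline, was left out of the pairs, and with it EARS2 and PARS2. Their shRNA differences were 0.06 (EPRS), -0.11 (EARS2) and 0.11 (PARS2), and their time differences 0.06, 0.19 and 0.06. The pair had the same sign for 9 amino acids in the shRNA comparison and for 9 in the time comparison. With ALKBH3 shRNA both genes were higher for valine (0.19 and 0.29), tryptophan (0.11 and 0.19), tyrosine (0.30 and 0.14) and threonine (0.43 and 0.14), in the order cytosolic and mitochondrial. Both were also higher for methionine (0.09 and 0.08), asparagine (0.02 and 0.08) and phenylalanine (0.01 and 0.01). For arginine (-0.07 and -0.28) and serine (-0.01 and -0.04) both were lower. With time the pair for tyrosine went apart, at -0.22 and 0.39, as did that for alanine, at -0.13 and 0.34. The pairs for isoleucine (0.25 and -0.02) and serine (-0.00125 and 0.09) also had opposite signs. Synthetases also fall into 2 structural classes by the fold of the catalytic domain. The median shRNA difference was 0.07 for 17 class I genes and 0.01 for 18 class II genes, EPRS being left out since it holds both, and the time difference -0.01 and 0.08.

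The 8 synthetases of the multi-synthetase complex had median differences of 0.06 with ALKBH3 shRNA and 0.03 with time. None of them had an unadjusted p below 0.05 in either limma fit. Of 14 measured scaffold and helper proteins, such as AIMP1 and AIMP2 of that complex, the tRNA exporter XPOT and the subunits GATB and GATC of the mitochondrial glutaminyl amidotransferase, 8 were higher with ALKBH3 shRNA (median 0.07) and 11 at 96 h (median 0.10), and 0 had an unadjusted p below 0.05 in either. The cytosolic elongation factors had medians of 0.03 and 0.05 over 7 genes, again with 0 below 0.05. Of 16 mitochondrial translation and tRNA modification factors 6 were higher with ALKBH3 shRNA (median -0.03) and 10 at 96 h (median 0.08). With time 2 of these 16 had an unadjusted p below 0.05 (limma), both higher, against 9.6% of all genes as higher. They were the ribosome recycling factor MRRF (0.40 ± 0.12) and the tRNA methyltransferase TRMT5 (0.55 ± 0.11). Their adjusted p-values with the block were 0.0580 and 0.0236.

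The amino acid response was also followed through genes other than synthetases. Of 26 such genes measured 23 were lower at 96 h, with a median of -0.34. An unadjusted p below 0.05 (limma) was reached by 12, all lower, against 9.67% of all genes as lower. The 12 were ATF3, ATF4, CHAC1, CTH, DDIT3, DDIT4, NUPR1, PCK2, PSAT1, SESN2, SLC6A9 and TRIB3, and their differences ran from -1.03 (ATF3) to -0.25 (PSAT1). With the block 12 genes had an adjusted p below 0.05, against 8.18% of all genes as lower. SLC7A11 (0.0375) was among them in place of PSAT1 (0.0980). ATF4 itself, the transcription factor of the response, was lower by -0.46 ± 0.10. The 11 measured synthetases of the response had a median of 0.00 with time, 5 being higher and 6 lower, and WARS was the only one of them with an unadjusted p below 0.05. The difference between the lists was not tested.

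With ALKBH3 shRNA the median of the amino acid response genes was 0.19, with 20 of 26 higher, and that of the 11 synthetases 0.06, with 8 higher. SLC7A5, which encodes the light chain of a transporter for large neutral amino acids, differed by 0.33 ± 0.11 (limma, unadjusted p = 0.0373). SLC7A11, the light chain of the cystine and glutamate exchanger, differed by -0.89 ± 0.31 (limma, unadjusted p = 0.0377). No other gene of the list had an unadjusted p below 0.05 in this comparison. Of all genes tested 4.71% were higher and 3.59% lower at that threshold. With the block the adjusted p was 0.0319 for SLC7A11, 0.0365 for ATF3 (a difference of 0.59) and 0.0964 for SLC7A5. The 7 measured synthetases whose windows hold TGATGNAA had a median shRNA difference of 0.07 and a median time difference of 0.01, beside 0.01 and 0.07 for the 22 whose windows do not.

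**Figure D4:**
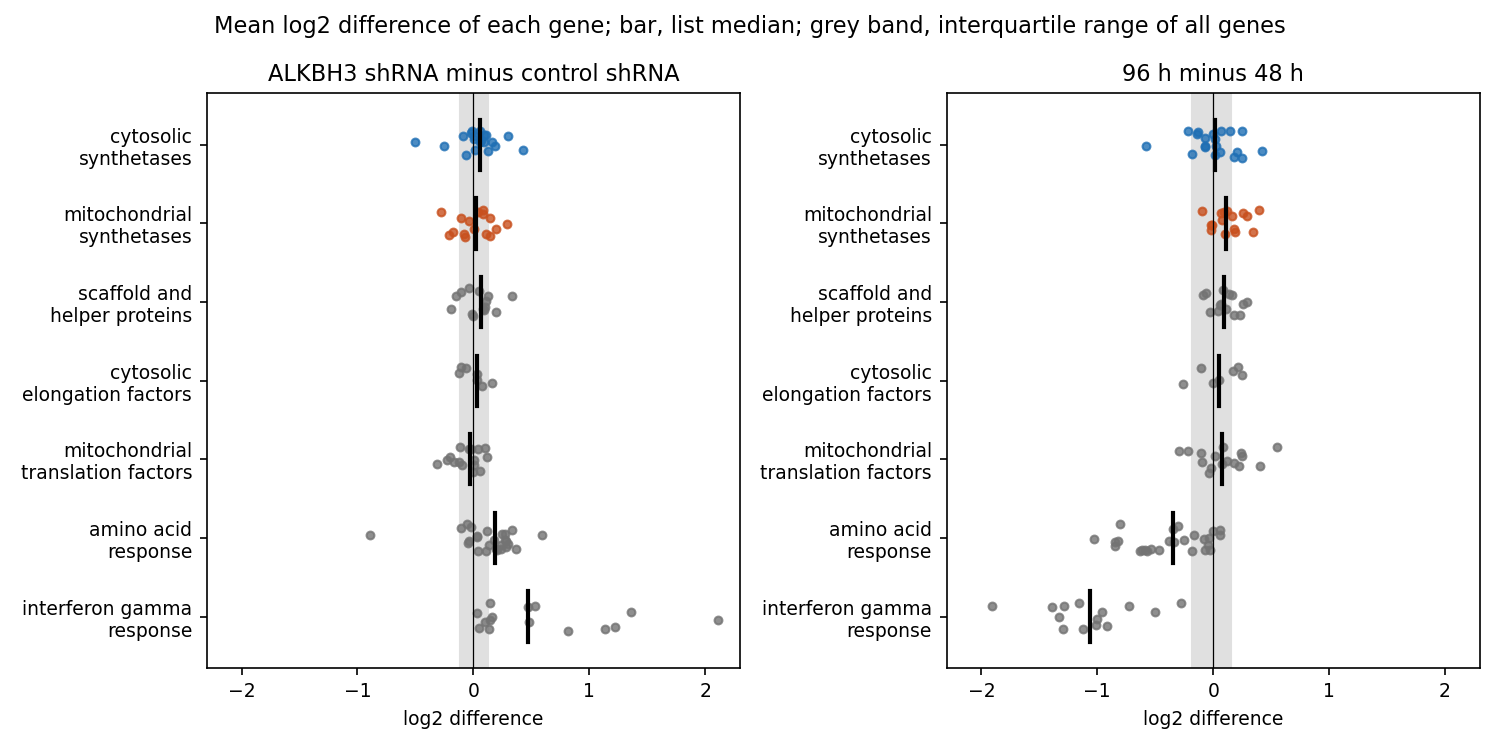
Mean log2 difference of each measured gene (points) by list, ALKBH3 shRNA minus control shRNA on the left and 96 h minus 48 h on the right; black bars are list medians and the grey band is the interquartile range of all genes tested. Both synthetase medians lie inside the band in each comparison, whereas the time medians of the amino acid response (-0.34) and interferon gamma response (-1.06) genes lie below it.

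The 4 differences between single arrays were small in the family as a whole. Over the synthetases the shRNAs differed by a median size of 0.12 at 48 h and 0.13 at 96 h, beside 0.15 and 0.14 over all genes. The time points differed by 0.16 (control shRNA) and 0.14 (ALKBH3 shRNA), beside 0.18 and 0.19. At 96 h the mitochondrial genes (0.16) differed more between the shRNAs than the cytosolic genes (0.12), and at 48 h they differed by 0.12 and 0.11, with no test of these values.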

How the data were processed

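RNA from 4 PC3 cultures was measured on 1 single-colour array each. The authors deposited spot intensities that Agilent Feature Extraction (version 10.7.3.1, per the file headers) had background-subtracted on each array, and a matrix of log2 values that they had normalized between arrays; the methods name limma without the step used. From the intensities, 43118 spots that are not controls on each array, less 180 to 379 outlier spots, were averaged over 34127 probes as log2 values minus the 75th percentile of the array; 0 spots were saturated. Probes entered the tests when both arrays of a group, in 1 group or more, had at least 0.5 of their spots well above background, and the brightest such probe on average stood for its gene. Gene names were not a column of the spot tables, so accessions named the genes, in place of the planned column; 9217 probes stayed unnamed.

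ALKBH3 shRNA was compared with control shRNA, and 96 h with 48 h, by lmFit and eBayes of limma 3.58.1 (R 4.3.3 and the data.table package at version 1.17.8) on all genes tested, 2 arrays against 2, without a covariate, and Benjamini-Hochberg adjustment covered all genes tested. The fit with the other factor as a replicate block was the paired alternative, since the labels give both shRNAs at each time point. The steps were tested on simulated data. Values of each array are given for members with an unadjusted p below 0.05, for the 4 members of each compartment with the largest difference in each comparison, and for WARS; of other lists, members with an unadjusted p below 0.05 are named, and ALKBH3 as the target. HARS, HARS2, TARS2, FARSA and the range ends were named after their values were seen. The members and lists were chosen with earlier results of these data known. Alternatives were normexp (offset 50, on spot medians, as spot means are not used here), other scalings, the authors' values, other filters, the mean over probes, the block, the methods' Student test, a 1.5-fold cutoff and leaving out each array.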

Additional observations from a re-analysis of the deposited data

Results flagged for a closer look

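SARS, the cytosolic seryl enzyme, had shRNA differences of opposite sign at the 2 time points, each larger in size than the median over all genes at that time point. With ALKBH3 shRNA its log2 signal was lower by -0.17 at 48 h and higher by 0.15 at 96 h. The difference between the time points was not tested, since each rests on 1 array against 1 array.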

How the results depend on the processing

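No synthetase passed the 2-fold cutoff under any alternative run, the 1.5-fold cutoff included. The number with an unadjusted p below 0.05 was less stable. With a replicate block for time point the shRNA comparison gave 7 (TARSL2, TARS, YARS, LARS, VARS2, RARS2 and IARS2), against 2 without it, 4 by the methods' Student test and 0 to 1 when an array was left out. In the time comparison it was 7 with shRNA as a replicate block (WARS, FARSB, YARS2, CARS2, AARS2, VARS and IARS), 2 by the methods' Student test and 1 to 3 when an array was left out, against 4. Adjusted p-values that passed 0.05 only with the block are given above, for WARS, FARSB and YARS2 among the synthetases.

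In the shRNA comparison the mitochondrial median minus the cytosolic median was -0.03, and it was -0.0706 with normexp, -0.0858 with quantile normalization and -0.0740 in the authors' values. Leaving out an array gave -0.107 to 0.0235 for it, 0.000245 to 0.10 for the cytosolic median, -0.11 to 0.12 for the mitochondrial median and -0.27 to 0.49 for WARS, which turned negative without the ALKBH3 shRNA array of 48 h (-0.27) or the control array of 96 h (-0.09). In the time comparison the mitochondrial median of 0.11 was 0.16 with median centring, 0.141 in the authors' values and 0.0819 to 0.141 when an array was left out. These causes were not tested. Leaving out an array also moved the cytosolic time median between -0.0168 and 0.0669, and quantile normalization turned it to -0.00235 and the mitochondrial shRNA median to -0.0112. Naming genes through a gene name column could not be run. Of the values for single genes, 23 lost and 16 gained an unadjusted p below 0.05 and 197 stayed on their side, and the number of arrays, 2 for each group, limits the precision.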
